A study of Mus musculus with 10 samples.

Results

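The genes described here carry the symbols of the replication-dependent histone genes of the mouse. They were measured in total RNA of mouse embryonic fibroblasts (MEFs), connective tissue cells grown from embryos. They were chosen by their symbols, as the rows of the deposited gene table whose name begins with Hist1h, Hist2h, Hist3h or Hist4h, and came to 70 of 52550 genes. By type, read from the symbol, they were 6 genes of the linker histone H1, and 20 of H2A, 19 of H2B, 12 of H3 and 13 of H4, the core histones. By cluster, 56 were Hist1 genes, of which 55 lie at chr13:21715763-23934851 and Hist1h2al lies apart at chr13:51202727-51203065. A further 10 were Hist2 genes (chr3:96219865-96270132), 3 were Hist3 genes (chr11:58948920-58956830) and 1 was Hist4h4 (chr6:136801553-136804415), all on mm10. The symbol rule also took in the pseudogene Hist3h2bb-ps, and Hist1h2aj and Hist1h2al, whose gene models hold no coding bases.

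The study set 5 female libraries beside 5 male libraries. All came from C57BL/6 MEFs of embryonic day 14 at passage 3, which carried no other allele and received no agent that the labels name. Ribosomal RNA was removed from the total RNA, with no selection for poly(A) tails, and libraries were made with a kit that keeps the strand. No label ties a library to an embryo or a culture of its own, and the p-values below therefore speak only of the spread among these 10 libraries, part of which may be technical.

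Replication-dependent histone genes supply the histones that package new DNA, and their mRNAs accumulate in S phase and are degraded when replication ends. As a rule they have no introns, and their mRNAs are the only ones of animal cells known to end, as a rule, without a poly(A) tail. The end is instead a conserved stem-loop in the 3′ UTR that is bound by the stem-loop binding protein SLBP, behind which the U7 small nuclear ribonucleoprotein directs the cut. Because many copies of each type sit in clusters and encode the same or nearly the same protein, a short read can match several of them.

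A search of the GENCODE M21 transcript models for the stem-loop, written as the 16-base motif GGNNCTNNNNAGNNCC with all 6 base pairs of the stem able to form, found it in 46 of the 70 genes. It lay in the last 100 bases of 23 of them, against 7 of the 21834 protein-coding genes of the annotation that are not among the 70 (0.0321%). The sites below show the commonest form and the forms in which the types differ. Capitals mark the stem-loop.

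Hist1h1c: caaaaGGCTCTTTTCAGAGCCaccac
Hist1h2ab: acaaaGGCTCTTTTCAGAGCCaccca
Hist1h2bb: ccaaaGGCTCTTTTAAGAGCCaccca
Hist1h3e: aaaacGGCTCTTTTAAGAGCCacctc
Hist2h2ac: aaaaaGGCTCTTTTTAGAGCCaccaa
Hist1h4d: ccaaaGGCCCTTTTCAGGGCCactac
Hist1h4j: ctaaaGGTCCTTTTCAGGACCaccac
Hist1h4i: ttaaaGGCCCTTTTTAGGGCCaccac

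The capitals of Hist1h1c are at chr13:23739512-23739527 and those of Hist1h4d at chr13:23581950-23581965, both on the plus strand and in the 3′ UTR. The form of Hist1h1c was shared by 26 genes of H1, H2A, H2B and H3. Counted from 1 at the 5′ end of the capitals, the form of Hist1h4d differed from it by T4C and A13G, which together replace one base pair of the stem by another, and was found in 7 genes, all H4. A change at the loop's last base, C10A, was carried by 6 genes of H1, H2B and H3, among them Hist1h2bb and Hist1h3e. The stem base at position 4 was C in 12 of 12 H4 genes with the motif and T in 34 of 34 genes of the other types. The 24 genes without the motif included all 11 protein-coding genes whose model stops at the coding sequence with no UTR, so that the letters in question were not in the window. In 23 genes the model ran on for 100 bases or more behind the stem-loop, up to 4884 bases in Hist1h1d, and 15 genes had AATAAA, the usual signal for a poly(A) tail, in their last 50 bases. Both the stem-loop and that signal were present in 12 genes.

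Upstream of the start, 61 of the 70 genes matched a RefSeq promoter (GRCm38.p6). The octamer ATTTGCAT, the site of the octamer-binding factors POU2F1 and relatives, was searched on both strands of the 200 bases before the start. It was present in 7 of 17 H2A and 6 of 16 H2B promoters and in none of the 6 H1, 10 H3 or 12 H4 promoters, against 1.38% of 32851 promoters in all, which include the histone promoters. H2A and H2B genes often stand head to head, and 9 H2A windows overlapped an H2B window, so these counts are not independent. The CCAAT motif was in 6 of 6 windows of H1, 17 of 17 of H2A, 16 of 16 of H2B, 8 of 10 of H3 and 3 of 12 of H4, against 29.3% of all promoters, and TATAAA was in 26 of 61, against 9.96%. The promoters below are those of an H2B, an H2A and an H4 gene with high levels, with the octamer in capitals where it was found; in Hist1h2ab it is on the opposite strand and reads ATGCAAAT.

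Hist1h2bb: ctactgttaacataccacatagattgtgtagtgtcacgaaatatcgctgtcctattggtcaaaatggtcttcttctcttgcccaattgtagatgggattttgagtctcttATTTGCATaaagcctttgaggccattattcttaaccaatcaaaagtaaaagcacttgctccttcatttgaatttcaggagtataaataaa
Hist1h2ab: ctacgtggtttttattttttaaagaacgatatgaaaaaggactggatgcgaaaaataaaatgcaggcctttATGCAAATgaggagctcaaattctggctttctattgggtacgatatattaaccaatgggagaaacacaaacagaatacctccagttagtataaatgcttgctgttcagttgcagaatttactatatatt
Hist1h4d: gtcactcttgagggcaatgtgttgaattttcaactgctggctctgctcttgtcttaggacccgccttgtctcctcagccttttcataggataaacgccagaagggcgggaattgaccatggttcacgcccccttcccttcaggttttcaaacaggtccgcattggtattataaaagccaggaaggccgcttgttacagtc

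They lie at chr13:23746534-23746733, chr13:23750888-23751087 and chr13:23581368-23581567, all on the plus strand. These 3 genes had median correlations of 0.92, 0.88 and 0.92 with the other histone genes across libraries, as described below.

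Libraries held between 30662616 and 45859721 unique gene reads, which the file headers set apart from total gene reads, of which there were between 36295813 and 54643418. The histone genes took between 0.101 and 0.175% of the unique and between 0.163 and 0.285% of the total gene reads of a library. Levels are in CPM, unique gene reads relative to the library size after scaling by the trimmed mean of M values (TMM), unless total reads are named. Xist was at 17.3 to 25.7 CPM in female libraries and at 0 to 0.0579 CPM in male libraries, while Ddx3y, on the Y chromosome, was at 0 to 0.463 CPM in female and 54.7 to 68.1 CPM in male libraries, so all libraries matched their labels. The 10 fibroblast markers summed to between 22447 and 29775 CPM in every library, and the muscle and the erythroid markers to at most 0.205 CPM. Endothelial markers summed to 19.3 to 32.2 CPM in female and 20.7 to 43.3 CPM in male libraries, epithelial markers to 9.96 to 13.4 CPM in female and 6.85 to 10.7 CPM in male libraries, and neural markers to 8.83 to 12.6 CPM in female and 7.38 to 13.4 CPM in male libraries.

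Summed per kilobase of exon, H4 genes had the highest mean in both kinds of read. The SD range of H4 met that of H2B in unique reads and those of H3, H2A and H2B in total reads. In unique reads the sums over genes of the CPM per kilobase were 554 ± 102 for H4, 391 ± 69.1 for H2B, 255 ± 49.6 for H3, 249 ± 47.8 for H2A and 249 ± 43.7 for H1 (SD, n = 10 libraries). In total reads they were 874 ± 178 for H4, 718 ± 155 for H3, 664 ± 130 for H2A, 634 ± 117 for H2B and 214 ± 37.6 for H1. H3, H2A and H1 thus lay within each other's spread in unique reads, whereas in total reads H3, H2A and H2B did and H1 stood below every core type. The H1 value depends on the gene models, since that of Hist1h1d is 7425 bases long. Gene reads counted as intron were also divided by exon length. Values of genes with a short model, such as Hist1h3h with 411 bases, therefore include reads from outside that length.

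Single genes were spread over a wide range. Hist1h4h had the highest unique level per kilobase, 126 CPM per kb, followed among the H4 genes by Hist1h4d at 77.9, Hist1h4f at 66.6 and Hist1h4a at 66.3. Hist1h1c, a linker histone gene, was at 80.3 CPM per kb, Hist1h2bb at 70.9, Hist1h2ab at 65.4, and the highest H3 gene, Hist1h3b, at 40.1. On total reads the order changed, with Hist1h4n at 241 CPM per kb, above Hist1h4h at 137, Hist1h3h at 135 and Hist2h2aa1 at 123. Hist1h4n had 46.8 CPM per kb in unique reads, since 7590 of its 46573 reads were unique. Its near copy Hist1h4m shares 89.0% of its 75-base windows with it. In total reads Hist1h4m had only 0 to 1.63 CPM a library, against 76.7 to 155 CPM for Hist1h4n. The total level of Hist1h4n may therefore include reads of Hist1h4m or other copies.

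The genes known as testis forms were near the limit of detection. Hist1h1t, the testis linker histone, had 86 unique reads over all 10 libraries, Hist1h2ba (testis H2B) 21 and Hist1h2aa (testis H2A) 20. Of the Hist3 genes, Hist3h2ba had 67 and the pseudogene Hist3h2bb-ps 46. Hist4h4, which lies alone on its chromosome, had 4370 unique of 4393 total reads and averaged 12.2 ± 2.48 CPM in female and 10.9 ± 2.22 CPM in male libraries (SD, n = 5 each).

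Unique reads made up a smaller share of the histone reads than of reads in general. They were 53.1 ± 0.967% of the histone genes' total gene reads, with a range of 51.5 to 55.4% over libraries, against 84.1 ± 0.646% over the other 52480 genes (SD, n = 10). No library's histone share reached the lowest of the other genes' shares, 83.0%. By type the share was 97.0 ± 0.238% for H1, 62.8 ± 1.14% for H4, 51.9 ± 0.842% for H2B, 32.5 ± 1.39% for H3 and 29.8 ± 1.23% for H2A, and over all libraries it was 61.1% in the Hist1 cluster, 13.2% in Hist2, 1.16% in Hist3 and 99.5% for Hist4h4. Of the 70 genes, 16 had a share of at least 90%, 29 one under 50%, 10 one under 10% and 8 one under 1%. The 10 genes under 10% held 621 unique of 172264 total reads, which is 19.1% of the total reads of all 70.

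**Figure D1:**
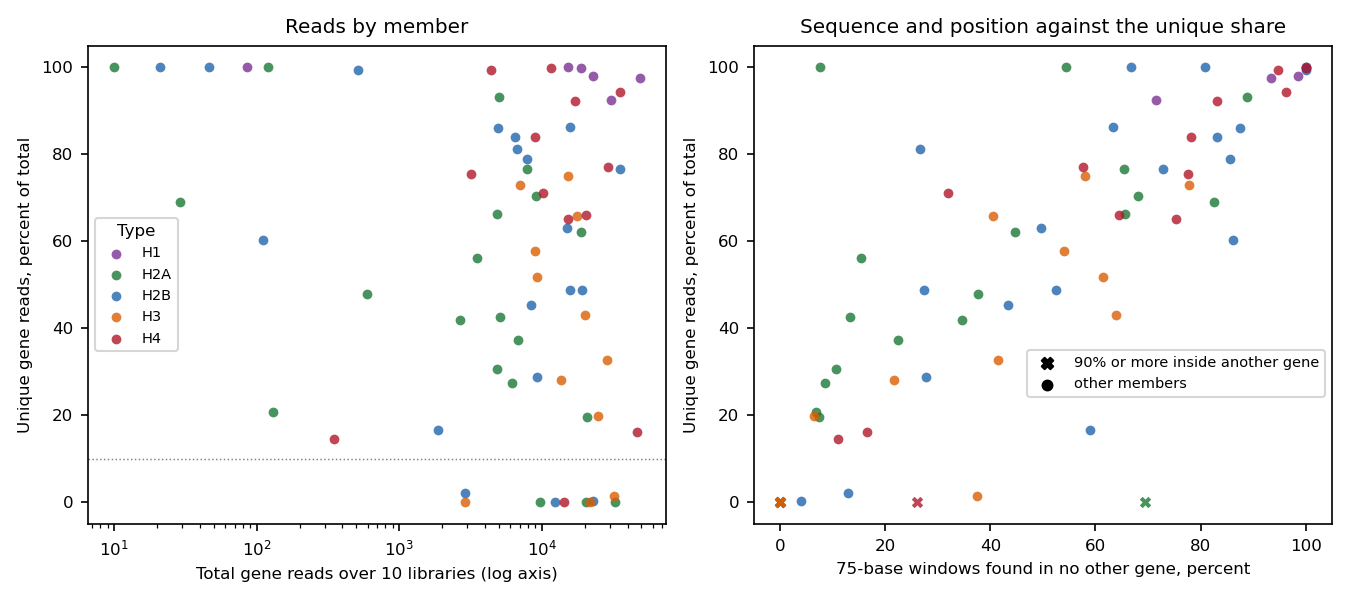
Each point is 1 of the 70 histone genes, coloured by type, with the unique share of its gene reads on the vertical axes against its total gene reads over 10 libraries (left, log axis, dotted line at 10%) and against the share of its 75-base transcript windows that occur in no other gene (right). Crosses mark the 7 genes with 90% or more of their span inside another gene, all with a unique share of at most 0.138%, and H1 genes in purple lie at the top of both panels.

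The genes at the bottom of this plot are among those with the most reads. Hist2h2aa1 had 4 unique of 32524 total reads and Hist2h2aa2, its mirror copy, 3 of 20341. Hist2h3b had 0 of 21910, which allows at most 3 unique reads, Hist2h2bb 4 of 12456 and Hist1h4b 2 of 14447. Hist3h2a had 2 of 9733, and Hist1h2bq 57 of 23072.

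Overlap with another gene model marked out most of these genes. In all, 7 genes had at least 90% of their span inside another gene of the table, and each had a unique share of 0.138% or less. Hist3h2a lies inside Trim17, a ubiquitin ligase gene on the same strand, although 69.4% of its 75-base windows were found in no other gene. Hist1h4b lies opposite 4930558J22Rik, Hist2h3b and Hist2h2bb opposite Gm20628, Hist2h2bb also in Gm42743 on its own strand, Hist2h2aa2 opposite Gm20632, and Hist2h2aa1 and Hist2h3c1 in Gm20634 on their own strand. Gm20628 itself had 3919 reads, all unique, Trim17 785 unique of 1760 and Gm42743 82 unique of 7620. For the 3 other genes under 10%, no gene of the table overlapped the span, but windows were shared with other transcripts, 95.9% of those of Hist1h2bq and 87.1% of those of Hist1h2br with each other and 62.6% of those of Hist2h3c2 with Gm20634. Across the 70 genes the share of windows found nowhere else and the unique share had a Spearman correlation of 0.78, a description over genes that share sequence and libraries. Whether the counting used strand is not given in the sources used here, so reads of a gene and of its opposite partner cannot be told apart.

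Genes with and without a UTR in the model also differed in how reads were divided between exons and introns. The 11 coding genes whose model has no UTR, such as Hist1h3h with 411 bases, had a median of 61.0% of their unique gene reads counted as intron reads (range 0 to 90.7%), although each of the 11 models lists 1 exon. In the 56 models with a UTR the median was 1.91% (range 0 to 66.0%), so the ranges overlap. The reason for the difference was not tested. Hist1h3h and Hist1h3i had the highest shares among H3 genes, 90.7 and 84.1%. Hist1h2bc, whose model spans chr13:23684199-23692908 with 1156 bases of exon, had 3840 unique reads across exon junctions, against 41 in Hist1h2be, 15 in Hist1h2bq, 4 in Hist1h2bp and 0 in the other genes. Since exon reads leave out what was counted as intron, gene reads were used throughout.

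Across libraries the histone genes rose and fell together. For the 50 genes with a mean of at least 1 CPM, log2 levels minus the mean of their sex had a median pairwise Pearson correlation of 0.85 over 1225 pairs, with quartiles of 0.74 and 0.92. The same median was 0.74 among 30 genes of S phase, such as the helicase genes Mcm2 to Mcm7, and 0.00 among 13376 tested genes in all. Correlations within a type and between types were close, with medians within a type of 0.90 for H1, 0.80 for H2A, 0.86 for H2B, 0.84 for H3 and 0.92 for H4, and of 0.87, 0.83, 0.86, 0.85 and 0.87 with the other types. These values are descriptions, since the pairs share genes and all values share the same 10 libraries. Female replicate 5 was the highest library for 44 of the 50 genes, and without it the median was 0.79. Levels were centred on sex but not on replicate number. The summed histone level was lowest in replicate 1 of both sexes, at 1143 CPM in female and 978 CPM in male libraries. The part of the replicate number in these correlations was not tested.

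**Figure D2:**
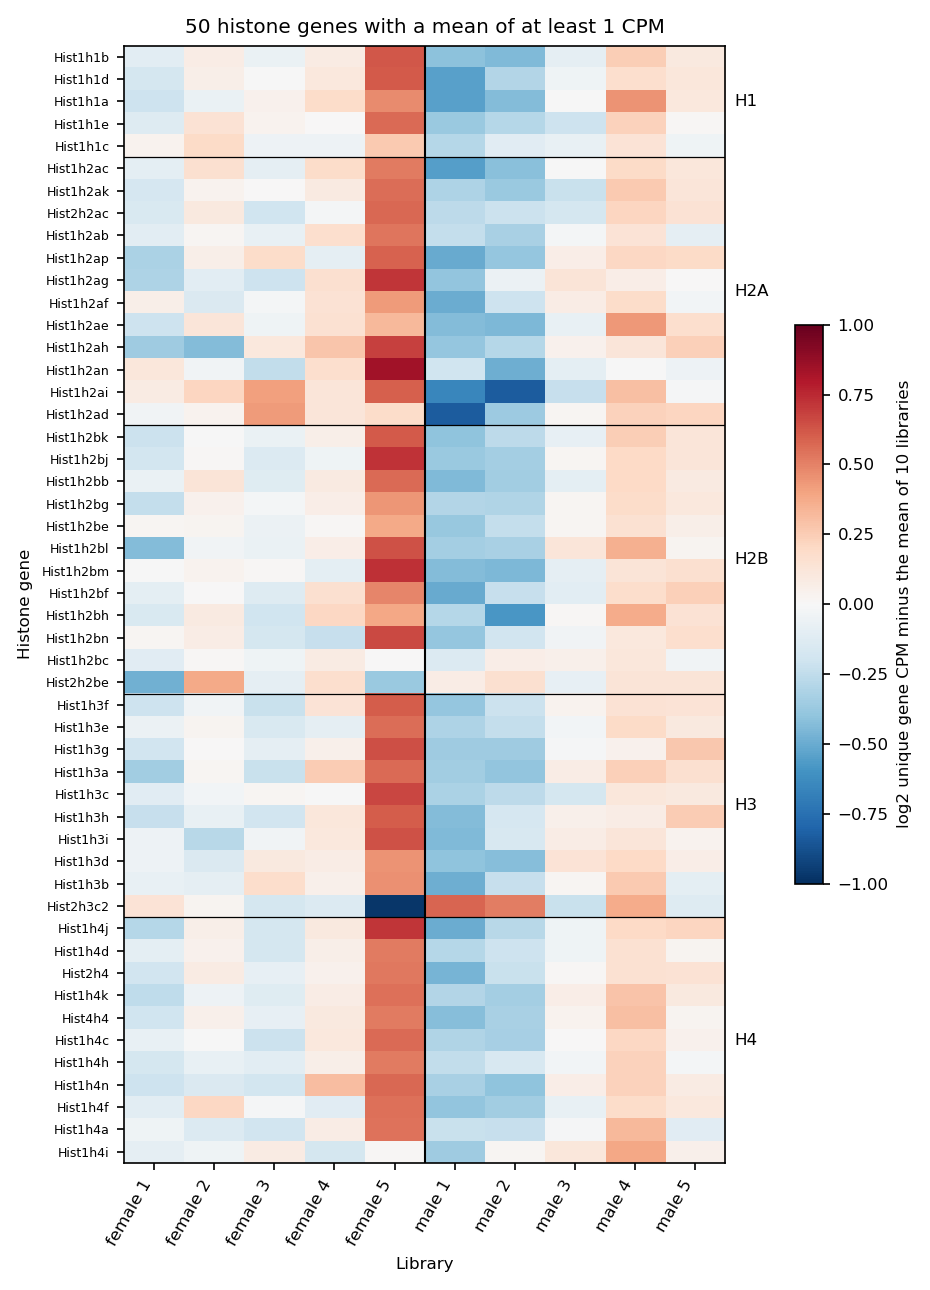
The 50 histone genes with a mean of at least 1 CPM (rows, by type and within a type by their median correlation with the others) in 5 female and 5 male libraries (columns), coloured by log2 unique gene CPM minus the gene's mean over the 10 libraries. The column of female replicate 5 is high and that of male replicate 1 low for nearly all genes. Hist2h3c2, Hist2h2be, Hist1h2bc and Hist1h4i, at the ends of their blocks, are highest in another library than female replicate 5. Of these, Hist1h2bc and Hist1h4i are still lowest in male replicate 1.

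The swings between libraries were wider than those of genes in general. The SD of the centred log2 levels had a median of 0.26 over the 50 histone genes (range 0.08 to 0.36), 0.18 over the S phase genes and 0.13 over 13376 genes. Hist1h4d, an H4 gene with a unique share of 94.2%, was at 81.7, 90.1, 77.6, 91.4 and 125.6 CPM in the female libraries 1 to 5, and at 72.0, 75.9, 85.2, 97.6 and 89.2 CPM in the male libraries. Its highest female library stood apart from the rest, and the sexes overlapped.

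Of the 50 genes, 5 had a median correlation under 0.6 with the others. Hist2h2be, known in the mouse as an H2B variant of olfactory neurons, had a median of -0.12, with 0.948, 1.72, 1.24, 1.49 and 1.02 CPM in the female and 1.39, 1.48, 1.25, 1.45 and 1.45 CPM in the male libraries. It was thus not high in female replicate 5, and it rested on 35 to 67 reads a library, 99.4% of them unique. Hist1h2bc had a median of 0.48 and varied by 1.19-fold between its lowest and highest library, the narrowest range of the 50, at 66.2, 72.1, 69.7, 75.9 and 72.0 CPM in the female and 65.2, 74.9, 74.2, 77.6 and 69.9 CPM in the male libraries. Neither the model of Hist1h2bc nor that of Hist2h2be holds the stem-loop motif, but Hist1h4i, Hist1h2ad and Hist2h3c2, also among the 5, hold it. It is also absent from the models of Hist1h1a and Hist1h1b, which have a UTR, and their medians were 0.87 and 0.93. A further 11 models without it belong to genes that lack a UTR. Hist1h4i had a median of 0.53 and Hist1h2ad one of 0.59.

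Hist2h3c2, an H3 gene of chr3:96238108-96239127, ran against the other genes in unique reads and with them in total reads. Its median correlation with the other histone genes was -0.74 in unique reads, on 24 to 70 reads a library, and 0.85 in total reads. In unique reads it was at 1.35, 1.26, 1.09, 1.12 and 0.629 CPM in the female and 1.85, 1.75, 1.06, 1.59 and 1.13 CPM in the male libraries, and was lowest in female replicate 5. In total reads it was at 65.1, 75.6, 60.7, 66.2 and 106.3 CPM in the female and 56.1, 65.5, 63.0, 77.3 and 73.2 CPM in the male libraries, where female replicate 5 was the highest. Unique reads were 1.51% of its total, and 62.6% of its windows were also in Gm20634. Which of these readings is that of Hist2h3c2 itself was not tested. The other 4 genes with a low correlation moved less between the kinds of read, to -0.11 for Hist2h2be, 0.45 for Hist1h2bc, 0.43 for Hist1h4i and 0.70 for Hist1h2ad.

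Total reads brought 11 further genes above 1 CPM. Their median correlation with the others ran from -0.61 for Hist2h3c1 to 0.91 for Hist1h4b, and over all 61 genes the median pair was at 0.83. Hist1h2br at 0.32 and Hist2h2ab and Hist1h2bq at 0.39 each were the lowest after Hist2h3c1. Total reads of Hist1h2br ran from 10 in female replicate 4 and male replicate 5 to 1274 in female replicate 5. Since 87.1% of its windows are also in Hist1h2bq, the total reads of either gene may include reads of the other. In bulk RNA a larger share of cells in S phase and more histone RNA in each such cell cannot be told apart.

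The most abundant gene of each type was set against the summed level of the 30 S phase genes over the 10 libraries. The S phase sums were 1057, 1082, 1162, 1250 and 1470 CPM in the female libraries 1 to 5, and 973, 1074, 1189, 1266 and 1279 CPM in the male libraries 1 to 5. They thus rose with the replicate number in both sexes, whereas the permutations below took the 10 libraries as exchangeable. What the replicate number stands for is not given in the labels, and its part in the correlations was not tested. Hist1h4d gave a Pearson r of 0.88 and a Spearman rho of 0.82, Hist1h3e 0.85 and 0.79, and Hist1h2ab 0.84 and 0.73. In permutation tests of 100000 resamples, two-sided and adjusted by the Benjamini-Hochberg method over the 10 coefficients, these 3 r each had an adjusted p of 0.01, with adjusted p of 0.0152, 0.0183 and 0.0339 for the rho of Hist1h4d, Hist1h3e and Hist1h2ab. For Hist1h1c (r = 0.61, rho = 0.53) the permutation tests gave adjusted p of 0.0859 and 0.154, and for Hist1h2bc (r = 0.50, rho = 0.44) of 0.154 and 0.204. The relation was not particular to the S phase list. Against the sum of 5 markers of mitotic and cycling cells, r was 0.87 for Hist1h2ab, 0.81 for Hist1h4d and 0.76 for Hist1h3e. It was 0.57 for Hist1h1c and 0.53 for Hist1h2bc, and these r were not tested.

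**Figure D3:**
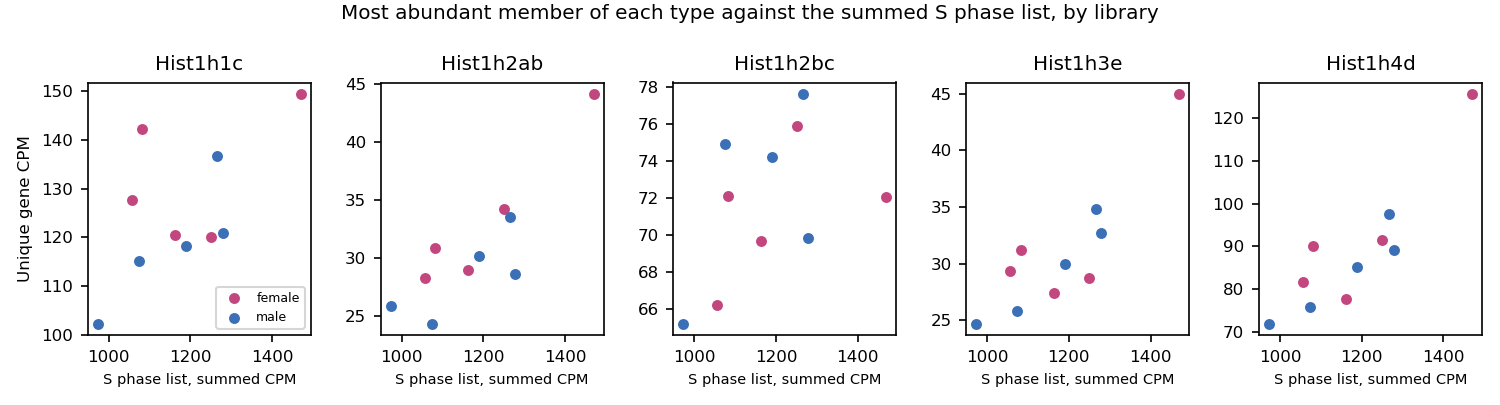
Unique gene CPM of the most abundant gene of each histone type against the summed CPM of 30 S phase genes, 1 point per library, with female libraries in pink and male libraries in blue. The point at the far right is female replicate 5, at 1470 CPM on the S phase list, and axes do not start at 0.

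These relations rest in part on the libraries at the ends. The 2 libraries farthest from the median of the S phase sum were female replicate 5 and male replicate 1. Without them r was 0.64 for Hist1h4d, 0.56 for Hist1h3e, 0.60 for Hist1h2ab, 0.44 for Hist1h2bc and -0.11 for Hist1h1c. None passed the permutation test, here adjusted over these 5 r alone (adjusted p of 0.263 for the first 3). Removing the mean of each sex left r at 0.88, 0.85 and 0.87 for Hist1h4d, Hist1h3e and Hist1h2ab. With 5 libraries in a sex, no correlation within a sex was computed. The macrophage markers were also highest in female replicate 5, with a sum of 35.2 to 89.7 CPM in female and 42.2 to 65.5 CPM in male libraries, with 5 of 5 markers above the filter on low counts. Their part in the result was not tested.

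Between the sexes, no histone gene was called. Of the 53 histone genes that passed the filter on low counts, 0 had an adjusted p under 0.05 in edgeR's quasi-likelihood test, against 15 of 16602 genes (0.0904%). At an unadjusted p under 0.05 there was 1, Hist1h2ai, against 5.55% of all genes, and DESeq2 called 0 histone genes, against 0.422% of all genes. In none of the 53 were the sexes free of overlap, against 0.976% of all genes. The 17 genes not tested had too few unique reads; 11 of them passed the filter in total reads, where 0 of 64 histone genes were called.

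**Figure D4:**
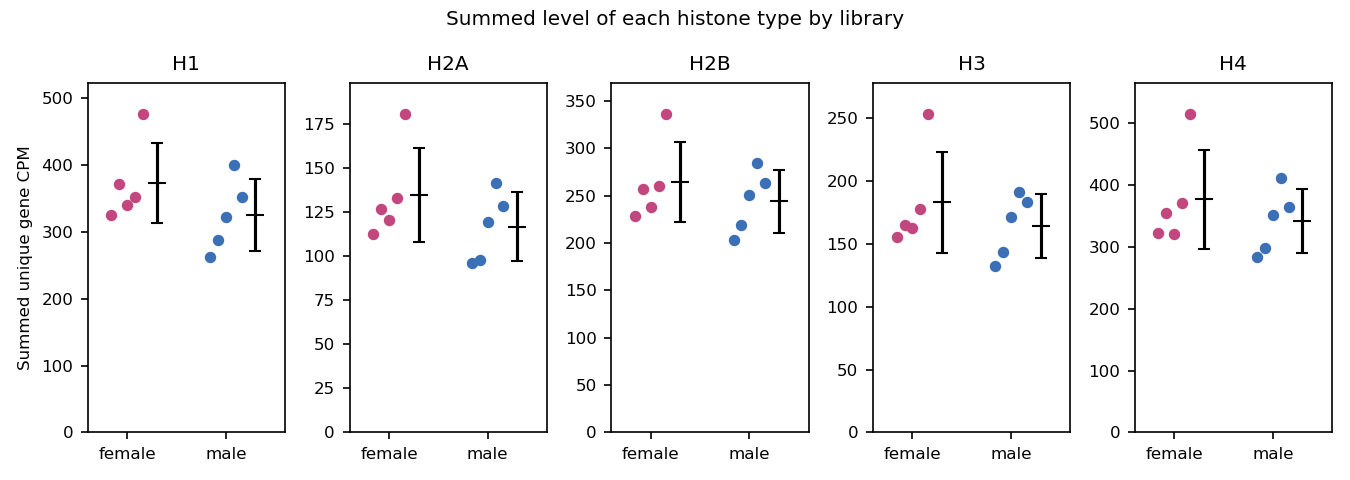
Summed unique gene CPM of each histone type, 1 point per library in the order of the replicate numbers, with female libraries left of male libraries and bars for the mean and SD of each sex (n = 5). The sexes overlap in every type, and the highest female point is replicate 5 throughout.

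The sign of the fitted change was nonetheless nearly uniform. Over all 70 genes the summed level was 1143, 1276, 1184, 1295 and 1759 CPM in the female libraries 1 to 5, and 978, 1045, 1215, 1428 and 1291 CPM in the male libraries 1 to 5. The means were 1331 ± 247 CPM in female and 1191 ± 183 CPM in male libraries (SD, n = 5 each), a log2 ratio of 0.16, which is smaller than the spread within a sex. By type the ratio was 0.20 for H1, 0.21 for H2A, 0.11 for H2B, 0.16 for H3 and 0.14 for H4. The fitted log2 fold change, female minus male, was above 0 in 49 of 53 genes with a median of 0.15, beside 52.1% of all tested genes and a median of 0.00. Without female replicate 5 it was above 0 in 34 of 53 with a median of 0.02. Since the genes moved together between libraries, as shown above, their signs are not independent of each other.

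**Figure D5:**
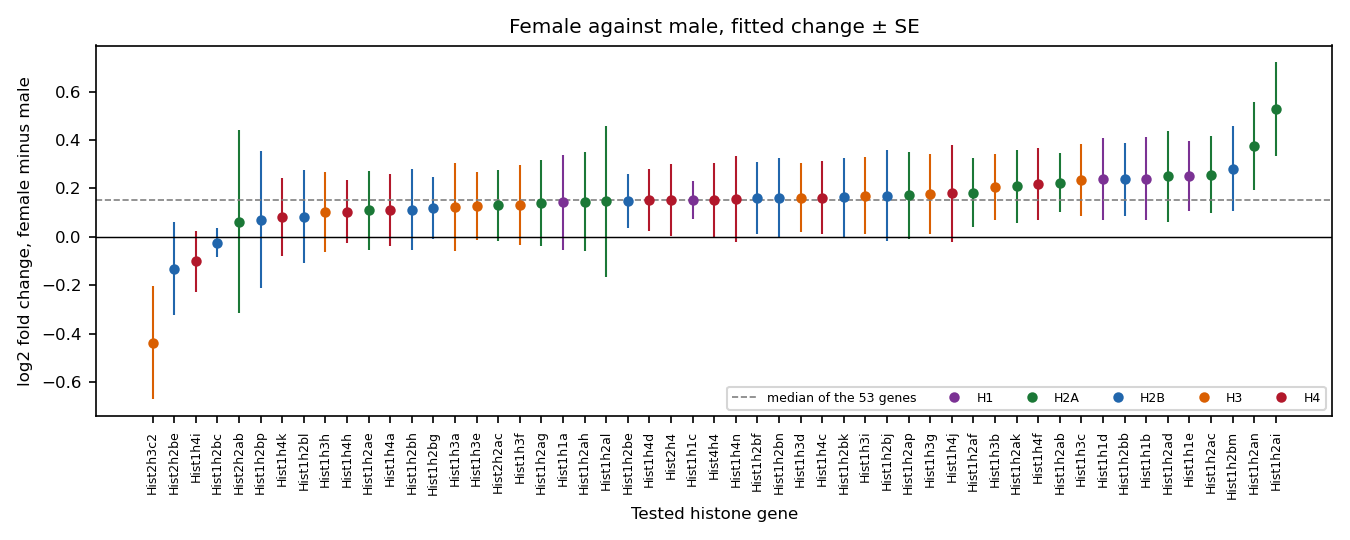
Fitted log2 fold change, female minus male, with its standard error for the 53 tested histone genes in rising order, coloured by type, with a dashed line at their median of 0.15. Of these, 4 lie below 0, from Hist2h3c2 at -0.44 to Hist1h2bc at -0.02, and none passed an adjusted p of 0.05.

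Hist1h2ai, an H2A gene, had the largest fitted change. It was at 3.93, 4.31, 4.92, 4.04 and 5.60 CPM in the female libraries and 2.36, 2.08, 3.17, 4.57 and 3.68 CPM in the male libraries, so that 1 male library lay within the female range. The log2 fold change was 0.53 (SE 0.19, edgeR adjusted p of 0.727), and 30.6% of its reads were unique. Hist1h2an (0.37, SE 0.18) and Hist1h1c (0.15, SE 0.08) had the next smallest p among genes with a positive sign, with edgeR adjusted p of 0.902 and 0.946. Hist1h1c was at 127.5, 142.1, 120.4, 120.0 and 149.4 CPM in the female and at 102.2, 115.2, 118.2, 136.7 and 120.8 CPM in the male libraries, which overlap.

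The 4 genes with a negative sign were Hist2h3c2 (-0.44, SE 0.23), Hist2h2be (-0.13, SE 0.19), Hist1h4i (-0.10) and Hist1h2bc (-0.02, SE 0.06). They are also 4 of the 5 genes least correlated with the others. In total reads the change of Hist2h3c2 was 0.16. The other genes among the 3 with the highest mean unique CPM of their type had changes between 0.10 and 0.25. These were 0.25 for Hist1h1e and 0.24 for Hist1h1d, 0.22 for Hist1h2ab, 0.21 for Hist1h2ak and 0.13 for Hist2h2ac, and 0.24 for Hist1h2bb and 0.17 for Hist1h2bj. Among H3 and H4 genes they were 0.13 for Hist1h3e and Hist1h3f, 0.21 for Hist1h3b, 0.15 for Hist1h4d, 0.10 for Hist1h4h and 0.16 for Hist1h4c. Hist4h4 was at 0.15. The edgeR adjusted p was 0.965 or more for each of these.

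Genes that act on histones or their mRNAs were not called between the sexes either. Among 30 S phase genes the change was positive in 26 with a median of 0.08 and 0 called, and the smallest p were those of Uhrf1 (0.22, SE 0.11), which keeps DNA methylation through replication, Asf1b and Chaf1b (0.21 each), which carry histones to new DNA, and Rrm1 (0.13, SE 0.08), a subunit of ribonucleotide reductase. Of 21 tested genes for histone mRNA processing and histone gene transcription, 14 were positive with a median of 0.02 and 0 called. The smallest p there was that of Eri1, an exonuclease that trims and degrades histone mRNA, at 26.3 ± 2.16 CPM in female and 23.3 ± 1.98 CPM in male libraries (log2 fold change 0.17, SE 0.08, edgeR adjusted p of 0.870). Of 14 chaperone genes 13 were positive with a median of 0.06 and 0 called. Over all tested genes 52.1% were positive. The S phase and chaperone lists share Asf1b, Chaf1a and Chaf1b. The S phase genes also moved together between libraries (median pairwise correlation 0.74), and their sum was highest in female replicate 5, at 1470 CPM. The signs within and between these lists are therefore not independent.

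The replication-independent variants, whose mRNAs as a rule carry poly(A) tails, had a median of 0.09 over 11 genes. Of these, 9 were positive and 0 called. H2afy2, which encodes a macroH2A, was at 22.4, 22.4, 22.7, 23.1 and 27.9 CPM in the female libraries and at 18.6, 19.9, 17.5, 20.1 and 21.7 CPM in the male libraries. The groups did not overlap, and the change of 0.27 (SE 0.08) had an unadjusted p of 0.00408 and an edgeR adjusted p of 0.562. H2afy, the other macroH2A gene, had a change of 0.13 (SE 0.05, edgeR adjusted p of 0.757). H2afz was at 15.1 ± 1.77 CPM in female and 13.7 ± 1.89 CPM in male libraries, a difference within the spread.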

How the data were processed

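The authors deposited a table of read counts per gene and library, not normalized, which separates unique from total reads and gene, exon, intron and junction reads, per the file headers. The submitters' processing notes name mm10 as the build; for the aligner, the rule for reads with several matches and the use of strand nothing is given in the sources used here. Of the columns of values per library, 70 stayed out. Unique gene reads (30662616 to 45859721 per library) were kept by filterByExpr (minimum count 10; 16602 genes), scaled by TMM and tested with edgeR 4.0.16's robust quasi-likelihood test in R 4.3.3, with sex as the only term and Benjamini-Hochberg adjustment over all genes. Standard errors are the log2 fold change over the root of F. Values in CPM were computed from the counts. A window counts as found in no other gene if its 75 bases are in no other gene's GENCODE M21 transcript. Intervals and floors cover counting error only.

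Members and lists were chosen with earlier results of these data known. Named were, by rule, the 3 genes of each type with the highest mean unique CPM, the 4 with the smallest p, Hist3 and Hist4 genes, testis forms, up to 4 with high total reads and a unique share under 10%, and up to 4 of each list with the smallest p; other genes were named after their values were seen. On simulated data over 16602 genes, the test found 22% of genes with a 1.25-fold and 90% with a 2-fold change, and false ones made up 8.2% of calls. Alternatives were other reads, scaling, filters and tools, a replicate block and leaving out each library.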

Additional observations from a re-analysis of the deposited data

Results flagged for a closer look

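In 126 groups of 5 libraries (63 values in each sex), 15 had a library set far from the other 4 by Dixon's criterion, where chance gives about 1 in 20, or 6.3. Of these, 14 were female replicate 5 as the highest library. The values overlap, since sums hold the single genes, so they are not 14 separate events.

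In female replicate 5, Hist1h2bj had 40.3 CPM, where the remaining females had 21.5 to 24.7, Hist1h3e at 45.0 against 27.4 to 31.2, and Hist1h4d at 125.6 against 77.6 to 91.4. H2afy2, not a replication-dependent gene, was at 27.9 CPM against 22.4 to 23.1. Summed unique CPM in that library were 1759 for all histone genes (others 1143 to 1295), 253 for H3, 514 for H4 and 1674 for the Hist1 cluster. In total reads the sums were 2868 for all (others 1797 to 2047), 513 for H2A, 559 for H2B, 675 for H3, 707 for H4 and 2362 for Hist1. H2afz, a replication-independent variant, stood out in male replicate 4 (17.0 CPM, where the remaining 4 male libraries had 12.1 to 13.5).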

How the results depend on the processing

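No histone gene was called under any setting run, including the total gene read and unique exon read fits. Genes called in all were 70 with DESeq2, 30 with no filter, and 12 to 36 when each library was left out (36 without male replicate 1), beside 15. Replicate numbers are not said to pair cultures, and same-numbered libraries correlated at 0.15, 0.18, 0.24, 0.06 and 0.39, and since 1 pair was not above 0.1 they were not taken as pairs; 3 of 5 female and 4 of 5 male libraries correlated best with their own number. With the replicate block in edgeR 43 genes were called, 0 of them histone genes. In that fit 12 of the 53 tested histone genes had an unadjusted p under 0.05, beside 1 without the block. Among all genes it was 8.94%. The smallest edgeR adjusted p of a histone gene with the block was 0.257.

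Histone genes with a positive change were 34 to 51 when a library was left out. Without female replicate 5 the sign differed in 15 of 53. Among the genes chosen by the naming rule, it reversed for Hist2h3c2 in total gene reads (0.16) and, in leave-one-out ranges, for Hist2h2ac (-0.0186 to 0.20), Hist1h2bc (-0.0569 to 0.00229), Hist1h2bj (-0.0281 to 0.24), Hist1h3e (-0.0184 to 0.19), Hist1h3f (-0.0321 to 0.20) and Hist1h4h (-0.0315 to 0.18). The unique share was 51.3% in exon reads and 64.1% as the median of genes. Without the 2 farthest libraries r was -0.11 for Hist1h1c, 0.60 for Hist1h2ab, 0.56 for Hist1h3e and 0.64 for Hist1h4d. The median pairwise correlation was 0.79 to 0.88 with a library left out. The cause of these changes was not tested.

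Of the 17 untested genes, 6 had 10 to 130 total reads, while 11 passed the filter in total reads. Most of those 11 had few unique reads for their total, as Hist2h3c2 does (1.51% unique). Hist3h2ba, also untested, had a unique share of 60.4% and few reads of either kind. Few reads limit Hist2h2be. At a change of 1.25-fold the simulated test found 22% of genes, and the median change of the histone genes, 0.15 on the log2 scale, is smaller than that.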
